A study of Mus musculus with 8 samples.

Results

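Glutathione, peroxiredoxin and thioredoxin genes were taken as all genes whose symbol belongs to the glutathione transferases (Gsta to Gstz and Mgst), the glutathione peroxidases (Gpx), the peroxiredoxins (Prdx), the thioredoxins and thioredoxin-domain proteins (Txn, Txnrd, Txnip, Txndc, Txnl), the glutaredoxins (Glrx), the glutathione synthesis and reduction enzymes (Gclc, Gclm, Gss, Gsr), the superoxide dismutases (Sod) or catalase (Cat). The choice used names only, and found 68 of the 21202 named genes. Of these, 66 had exon values and 68 had intron values. Neural progenitor cells (NPC) of 1 clone were set against the line they were derived from in culture, F1-21.6, a line of hybrid mouse embryonic stem cells (ESC). Both carry the 129Sv-Cast/EiJ background with no further engineered allele named. The ESC were kept on inactivated embryonic fibroblast feeders in serum with leukaemia inhibitory factor and beta-mercaptoethanol, a thiol reducing agent. The sources used here do not give the NPC medium, so cell type, clone and medium cannot be told apart. Total RNA without ribosomal RNA was sequenced from 2 biological replicates per cell type, each as 2 technical libraries, 8 libraries in all.

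These genes form the thiol-based antioxidant system of the cell. Glutathione is a tripeptide made by glutamate-cysteine ligase and glutathione synthetase. It reduces peroxides through the glutathione peroxidases, is coupled to reactive compounds by the glutathione transferases, and is recycled by glutathione reductase with NADPH. Peroxiredoxins reduce hydrogen peroxide in parallel and are recharged by thioredoxin, which thioredoxin reductase recharges in turn. Superoxide dismutases turn superoxide into hydrogen peroxide, and catalase breaks that down. In the nervous system, glial cells and neural progenitors are known for their glutathione supply. The transcription factor Nrf2 drives many of these genes through a DNA motif called the antioxidant response element.

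Exon levels were deposited as RPKM (reads per kilobase of exon, scaled to the sequencing depth) pooled over the libraries of a cell type, with the authors' DESeq2 fold change of NPC over ESC. They carry no replicate values, so no spread stands beside them. Intron values, which come mostly from RNA not yet spliced, were deposited for each biological replicate, in a unit inferred to be RPKM, and were tested with limma on log2(RPKM + 1). The whole reads recovered from them sum to 6130157 and 5536926 in NPC replicates 1 and 2. In ESC replicates 1 and 2 they sum to 6215907 and 7002635. These sums exceed the inferred scaling totals (5792056 and 5186790 in NPC, 5767704 and 6500767 in ESC), so they are not numbers of distinct reads. The reason was not tested. NPC replicate 1 stood apart. The median intron level of 239 olfactory and vomeronasal receptor genes, which neither cell type is known to use, was 0.747 RPKM in NPC replicate 1 and 0.0828 in NPC replicate 2, against 0.0291 in ESC replicate 1 and 0 in ESC replicate 2. Cell type markers followed the labels in the authors' deposited table: 8 of 8 neural progenitor markers were higher and 9 of 9 pluripotency markers lower in NPC. Higher too were 6 of 7 astrocyte markers, and lower were 2 of 2 macrophage markers tested, in the authors' deposited table. Feeder fibroblast markers were not at 0 in either cell type. Their summed exon level over 12 genes was 52.5 RPKM in NPC and 88.3 in ESC, with 1 called higher and 7 lower in the authors' deposited table. Without the gene called higher, Fbn1 (35.1 RPKM in NPC and 4.56 in ESC, singled out after its values were seen), the other 11 summed to 17.3 RPKM in NPC and 83.7 in ESC in the authors' deposited table. In bulk RNA, fewer cells of a type and less RNA per cell cannot be told apart.

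The antioxidant genes did not move as a block, and 5 of their 8 classes held genes called higher together with genes called lower. Mgst1, Gstm1, Gstz1, Gpx8, Prdx5, Prdx2 and Cat were higher in NPC, while Gsta4, Gpx1, Prdx1, Sod1, Gsr and Gclm were lower. The test covered 55 genes, those whose mean exon level reached 1 RPKM and that had an adjusted p, and 38 of them passed 0.05 in the authors' deposited table, or 69.1%, against 66.2% of all 12509 genes tested. There were 15 higher, or 27.3% (32.3% of all genes), and 23 lower, or 41.8% (33.9% of all genes). The median exon log2 fold change in the authors' deposited table was -0.21 over the 55 genes and -0.07 over all genes tested. The total share called is thus close to that of any gene in this comparison.

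**Figure D1:**
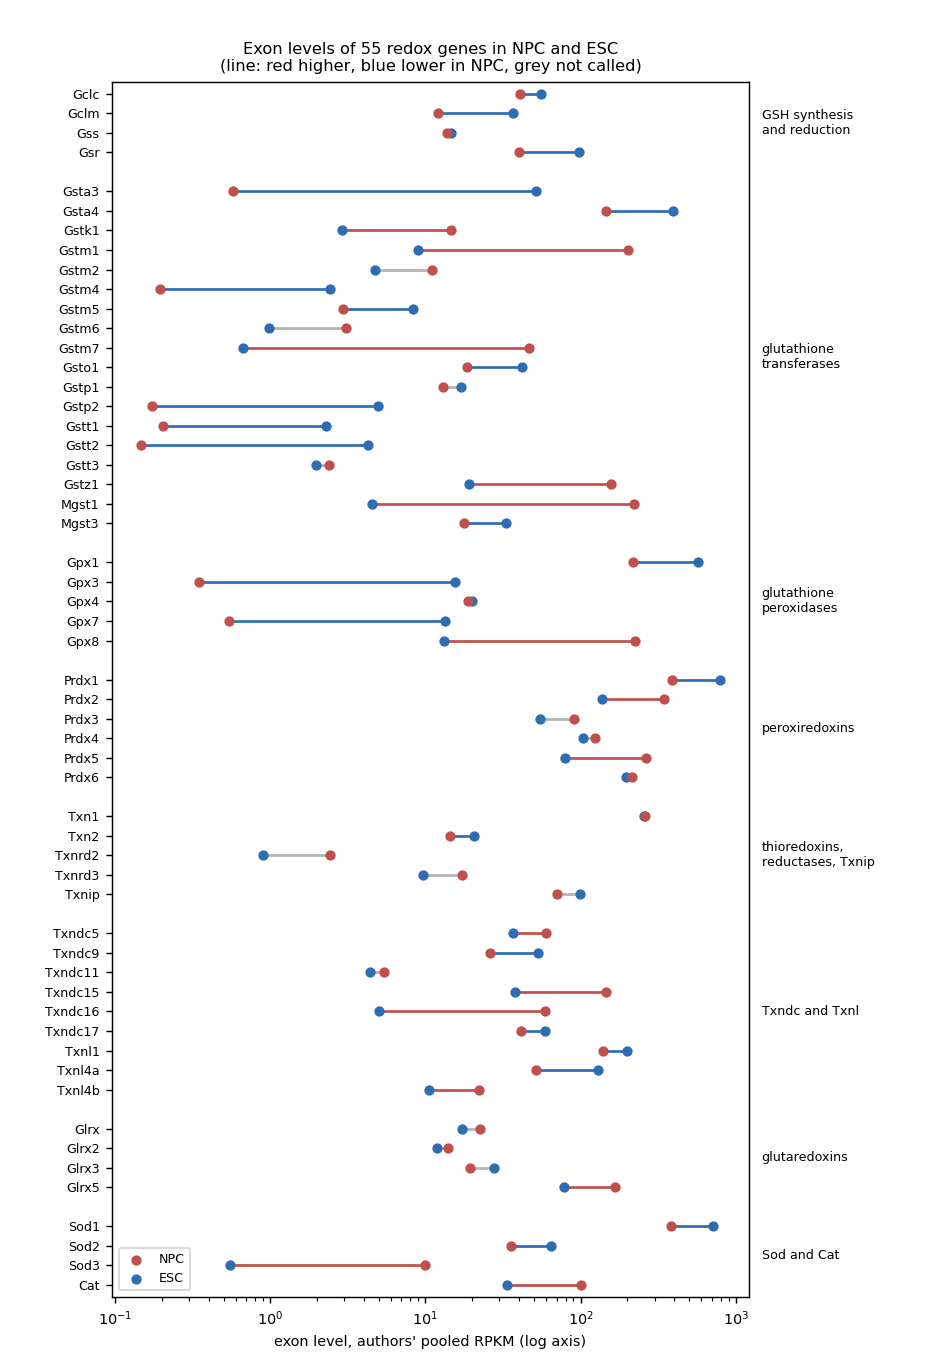
Exon levels of the 55 tested genes, in the authors' pooled RPKM on a log axis, with NPC in red and ESC in blue and a line joining the pair of values. A red line marks a gene called higher in NPC, a blue line a gene called lower and a grey line a gene not called at an adjusted p of 0.05 in the authors' deposited table. The longest lines belong to Gsta3, Gstm7, Gpx3 and Mgst1, and red and blue lines occur together in 5 of the 8 classes.

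To describe the promoters of these genes, the windows from 250 bases before to 50 bases after each RefSeq transcript start (build GRCm38.p6, not the mm9 build of the expression files) were searched for the core of the antioxidant response element, TGACNNNGC, on both strands, where the other strand reads GCNNNGTCA. A window was found for 60 of the 68 genes, and 11 of these, or 18.3%, held the motif, against 14.0% of all 27025 genes in the table. The motif stood in 3 of 14 genes called higher, in 5 of 17 called lower, in 1 of 16 not called and in 2 of 13 not tested on exons in the authors' deposited table. The upstream stretches of 3 genes are shown in full. They were picked as a gene with a large rise and the most abundant peroxiredoxin. The other is a member of the Gstm cluster that went against its neighbours on exons. Mgst1 is at chr6:138140277-138140526, Prdx1 at chr4:116685349-116685598 and Gstm5 at chr3:107895604-107895853, all on the plus strand. Each is the sequence of the 250 bases before the start, read 5′ to 3′, with the motif in capitals.
Mgst1: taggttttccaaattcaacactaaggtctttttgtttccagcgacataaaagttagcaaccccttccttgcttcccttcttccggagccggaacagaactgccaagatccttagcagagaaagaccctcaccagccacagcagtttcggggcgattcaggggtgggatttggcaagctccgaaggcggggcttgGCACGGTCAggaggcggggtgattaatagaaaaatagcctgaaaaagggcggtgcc
Prdx1: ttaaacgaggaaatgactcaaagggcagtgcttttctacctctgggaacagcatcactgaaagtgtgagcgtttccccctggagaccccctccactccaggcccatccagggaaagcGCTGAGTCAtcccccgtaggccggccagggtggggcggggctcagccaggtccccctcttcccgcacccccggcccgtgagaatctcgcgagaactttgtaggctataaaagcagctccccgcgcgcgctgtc
Gstm5: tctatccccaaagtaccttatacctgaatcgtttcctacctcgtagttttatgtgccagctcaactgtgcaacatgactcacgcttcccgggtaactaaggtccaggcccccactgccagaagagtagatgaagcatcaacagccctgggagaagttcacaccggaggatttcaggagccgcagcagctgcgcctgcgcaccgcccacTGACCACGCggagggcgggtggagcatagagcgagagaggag
The motif began 56 bases before the start in Mgst1, 133 before it in Prdx1 and 42 before it in Gstm5. In Mgst1 and Prdx1 it lay on the minus strand, and in Gstm5 on the plus strand.

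The sites of 3 more genes are shown with 10 flanking bases on each side, since they belong to other genes that fell in NPC: the glutathione synthesis gene Gclm at chr3:122245413-122245441, the transferase Gsta3 at chr1:21240454-21240482 and the dismutase Sod1 at chr16:90220696-90220724, in GRCm38.p6 on the plus strand, again with the motif in capitals.
Gclm: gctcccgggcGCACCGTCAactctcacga
Gsta3: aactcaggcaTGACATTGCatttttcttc
Sod1: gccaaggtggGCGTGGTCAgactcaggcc
The Gsta3 site reads on the plus strand and the other two on the minus strand. A match to these letters is a description of the window, and binding was not measured.

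The glutathione transferases, which attach glutathione to reactive compounds, changed the most in their makeup. Of 24 members, 18 were tested on exons, with 5 higher and 9 lower in the authors' deposited table. Their summed exon level was 860 RPKM in NPC and 606 in ESC. Gsta4, an alpha-class enzyme known for clearing the lipid peroxidation product hydroxynonenal, made up 17.0% of that sum in NPC and 65.3% in ESC. In NPC the sum was spread over Mgst1 with 25.8%, Gstm1 with 23.5% and Gstz1 with 18.2%, against 0.741%, 1.47% and 3.13% in ESC. These shares come from the authors' pooled RPKM, which is per length, and have no replicate error.

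Mgst1, a membrane-bound transferase and peroxidase of the endoplasmic reticulum and mitochondria, was at 222 RPKM in NPC and 4.49 in ESC, an exon log2 fold change of 5.46 in the authors' deposited table (adjusted p 1.84e-60). Its introns held 86 and 121 reads in NPC replicates 1 and 2, against 9 and 7 in ESC replicates 1 and 2. That is 0.972 and 1.53 intron RPKM in NPC against 0.102 and 0.0705 in ESC, below the mean of 1 needed for the test, and the groups did not overlap. Gstz1, the maleylacetoacetate isomerase of tyrosine breakdown, was at 157 exon RPKM in NPC and 18.95 in ESC in the authors' deposited table (log2 fold change 2.90, adjusted p 1.64e-31). Its intron level was 5.73 and 10.4 RPKM in NPC replicates 1 and 2, against 0.819 and 0.867 in ESC. Both NPC values lay far above both ESC values, with an intron log2 fold change of 2.25 (SE 0.300, limma adjusted p 0.000145). That call was lost without ESC replicate 1 or without ESC replicate 2, at an adjusted p of up to 0.0829. Gstk1, the kappa-class enzyme of mitochondria and peroxisomes, was also higher, at 14.7 exon RPKM in NPC and 2.91 in ESC in the authors' deposited table (log2 fold change 2.18, adjusted p 0.000183). Gstk1 introns were at 1.92 and 2.20 RPKM in NPC against 0.793 and 0.220 in ESC, without overlap, and rose by limma (log2 fold change 1.05, SE 0.210, adjusted p 0.00188), a call that ended without ESC replicate 2 (adjusted p 0.140).

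The 7 mu-class genes lie side by side on mouse chromosome 3 (mm9), with start sites from 107698772 (Gstm5) to 107847774 (Gstm4), a span of 149 kb. Neighbours within it went opposite ways on exons. Gstm7, whose start lies 35.9 kb from that of Gstm5, was at 46.4 exon RPKM in NPC and 0.668 in ESC in the authors' deposited table (log2 fold change 5.97, adjusted p 2.3e-39). Its introns held 65 and 141 reads in NPC against 1 and 0 in ESC, or 2.73 and 6.62 RPKM against 0.0422 and 0, and the log2 fold change was 2.39 (SE 0.277, limma adjusted p 7.36e-05). Gstm1, the main mu-class enzyme, was at 202 exon RPKM in NPC and 8.92 in ESC in the authors' deposited table (log2 fold change 4.28, adjusted p 4.22e-09). Gstm1 introns were at 2.96 and 7.70 RPKM in NPC against 0.939 and 0.833 in ESC, without overlap (log2 fold change 1.64, SE 0.317, limma adjusted p 0.00157, lost without ESC replicate 1 or without ESC replicate 2, at up to 0.0839).

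At the ends of the same cluster the exon change ran the other way. Gstm4 was at 0.195 exon RPKM in NPC and 2.43 in ESC in the authors' deposited table (log2 fold change -3.65, adjusted p 0.00131). Its introns held 14 and 3 reads in NPC against 7 and 3 in ESC. That is 0.869 and 0.208 RPKM against 0.437 and 0.166, so the replicates overlapped, below the mean needed for the test. Gstm5 was at 2.94 exon RPKM in NPC and 8.32 in ESC in the authors' deposited table (log2 fold change -1.59, adjusted p 0.0273). The Gstm5 intron replicates overlapped, at 1.17 and 0.602 RPKM in NPC and 1.80 and 0.641 in ESC, on 6 to 20 reads each. Gstm2 and Gstm6 were higher in NPC by value only, at 10.99 and 3.09 exon RPKM against 4.69 and 0.979 in ESC, with adjusted p of 0.0936 and 0.178 in the authors' deposited table. Gstm3 was below 0.2 RPKM in both cell types and was not tested.

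**Figure D2:**
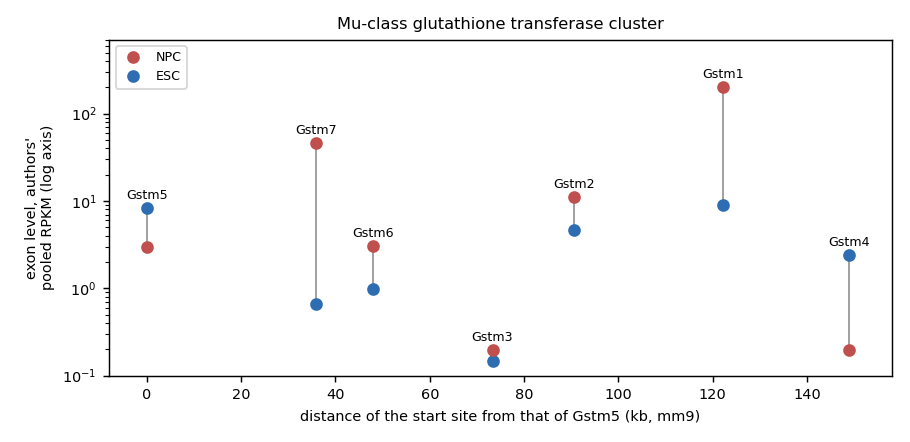
Exon levels of the 7 mu-class glutathione transferase genes by the distance of their start site from that of Gstm5 in kb (mm9), in the authors' pooled RPKM on a log axis, with NPC in red and ESC in blue. Gstm7 and Gstm1 in the middle are higher in NPC, and Gstm5 and Gstm4 at the ends are lower.

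Every called gene of the alpha, theta and pi classes was lower in NPC on exons. Gsta3, an alpha-class enzyme known in the mouse for aflatoxin conjugation, was at 0.578 exon RPKM in NPC and 51.3 in ESC in the authors' deposited table (log2 fold change -5.99, adjusted p 7e-06). Its intron level was 1.28 and 0.115 RPKM in NPC replicates 1 and 2, against 10.7 and 11.9 in ESC. The higher NPC value is that of the replicate with the raised receptor gene background, and both lay far below ESC (log2 fold change -2.94, SE 0.354, limma adjusted p 8.71e-05). Gsta4 was at 146 exon RPKM in NPC and 396 in ESC in the authors' deposited table (log2 fold change -1.56, adjusted p 1.76e-09), and its introns were at 1.22 and 0.904 RPKM in NPC against 3.73 and 3.41 in ESC, without overlap (log2 fold change -1.15, SE 0.205, limma adjusted p 0.000924). Gstt2 and Gstt1, of the theta class, were at 0.147 and 0.202 exon RPKM in NPC against 4.28 and 2.28 in ESC, and both fell in the authors' deposited table (adjusted p 9.22e-08 and 0.0267). Gstt1 introns lay the other way without overlap, with 83 and 19 reads (1.04 and 0.267 RPKM) in NPC against 17 and 4 (0.215 and 0.0448 RPKM) in ESC, below the mean needed for the test. The 22 members below that mean had medians of 0.879 and 0.251 RPKM in NPC replicates 1 and 2, against 0.147 and 0.0610 in ESC. The part of the raised receptor gene background in the Gstt1 values was not tested. Gstt3, in the same cluster on chromosome 10 as Gstt1 and Gstt2, was at 2.39 exon RPKM in NPC and 1.98 in ESC and was not called in the authors' deposited table (adjusted p 0.933). The Gstt2 intron call (limma adjusted p 0.00626) rests on at most 10 and 0 reads in NPC against 16 and 48 in ESC. These counts are the higher of 2 sets of whole reads that fit its values. The call ended without NPC replicate 2, with columns scaled to the same median (adjusted p 0.142) and with voom (0.0559).

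The pi-class pair, whose start sites lie 4.31 kb apart on chromosome 19, is uncertain as single genes, since 33.7% of the distinct 50-base stretches of Gstp1 transcripts and 54.3% of those of Gstp2 also occur in transcripts of another gene, mostly of each other. Gstp2 was at 0.174 exon RPKM in NPC and 4.98 in ESC in the authors' deposited table (log2 fold change -4.61, adjusted p 0.000109). Gstp1 was at 12.9 exon RPKM in NPC and 17.0 in ESC and was not called in the authors' deposited table (adjusted p 0.281). On introns both fell. Gstp2 held 0 and 1 reads in NPC against 37 and 43 in ESC (limma adjusted p 2.04e-05), and Gstp1 held 14 and 6 reads against 54 and 62 (adjusted p 0.000281). The Gstp1 counts are the higher of 2 sets of whole reads that fit its values. Gsto1, an omega-class enzyme that reduces dehydroascorbate, and Mgst3, a microsomal transferase, also fell, to 18.5 and 17.6 exon RPKM in NPC against 42.1 and 33.1 in ESC in the authors' deposited table (adjusted p 0.00105 and 0.0149). The remaining transferases Gsta1, Gsta2, Gsto2, Gstt4 and Mgst2, like Gstm3, had a mean below 1 RPKM and no test. Gsta1 shares 90.5% of its 50-base stretches with other genes, Gsta2 49.8%, Gstm3 28.8%, Gstm1 18.9% and Gstt3 12.5%, so that the way shared reads were counted, for which the sources used here give no detail, bears on their levels.

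Among the glutathione peroxidases, the most abundant member of ESC was joined by another in NPC. Gpx1, the cytosolic selenium enzyme, was at 219 exon RPKM in NPC and 568 in ESC in the authors' deposited table (log2 fold change -1.51, adjusted p 6.94e-08). Gpx8, a membrane protein of the endoplasmic reticulum, was at 225 exon RPKM in NPC and 13.2 in ESC in the authors' deposited table (log2 fold change 3.92, adjusted p 5.05e-46). Gpx8 thus held 48.4% of the summed exon level of the class in NPC and 2.08% in ESC, and Gpx1 held 47.1% in NPC and 89.7% in ESC, in the authors' pooled RPKM. The sums were 465 RPKM in NPC and 633 in ESC.

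Gpx8 introns were at 2.71 and 5.47 RPKM in NPC replicates 1 and 2, against 0.399 and 0.707 in ESC. The groups did not overlap, and the log2 fold change was 1.66 (SE 0.256, limma adjusted p 0.000358). Gpx1 has little intron, and its values of 2.38 and 2.65 RPKM in NPC against 9.54 and 14.8 in ESC rest on 3 reads in each NPC replicate and on 12 and 21 in ESC (adjusted p 0.00411, lost without ESC replicate 1 or without ESC replicate 2, at up to 0.258). Gpx4, the enzyme that reduces lipid peroxides in membranes, was at 18.9 exon RPKM in NPC and 20.03 in ESC and was not called in the authors' deposited table (log2 fold change -0.21, adjusted p 0.670). A share of 34.7% of its 50-base stretches also occurs in other transcripts, mostly of a pseudogene, Gpx4-ps2.

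Gpx3, the secreted enzyme of plasma, and Gpx7, which serves protein folding in the endoplasmic reticulum, were close to 0 in NPC. Gpx3 was at 0.344 exon RPKM in NPC and 15.5 in ESC (log2 fold change -5.81, adjusted p 4.03e-22) and Gpx7 at 0.545 in NPC and 13.3 in ESC (log2 fold change -4.84, adjusted p 1.48e-12) in the authors' deposited table. The intron levels of both were below 1 RPKM in all 4 replicates. Gpx3 introns held 12 and 1 reads in NPC against 31 and 26 in ESC, and Gpx7 introns held 26 and 3 reads against 21 and 12, so that the Gpx7 replicates overlapped. The feeder fibroblast markers moved the same way in 7 of 12 genes, and their part in these changes was not tested. Gpx2, Gpx5 and Gpx6, known from gut, epididymis and olfactory tissue, were below a mean of 1 RPKM.

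The summed exon level of the 6 peroxiredoxins was 1429 RPKM in NPC and 1361 in ESC in the authors' pooled RPKM, while its makeup differed. Ratios of pooled RPKM lay a median of 0.143 log2 units above the deposited fold changes, so the order of these sums is uncertain. Prdx1, the main cytosolic enzyme, was at 390 exon RPKM in NPC and 790 in ESC in the authors' deposited table (log2 fold change -1.16, adjusted p 1.09e-05). Prdx2, a close cytosolic relative, was at 344 exon RPKM in NPC and 137 in ESC (log2 fold change 1.21, adjusted p 8.55e-05), and Prdx5, found in mitochondria, peroxisomes and cytosol, at 265 in NPC and 79.5 in ESC (log2 fold change 1.61, adjusted p 2.08e-08), in the authors' deposited table. Prdx3 of mitochondria, Prdx4 of the endoplasmic reticulum and Prdx6, which also acts on phospholipids, were at 90.8, 123 and 216 exon RPKM in NPC against 54.9, 104 and 195 in ESC, and none of these was called in the authors' deposited table (adjusted p 0.131, 0.728 and 0.986).

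**Figure D3:**
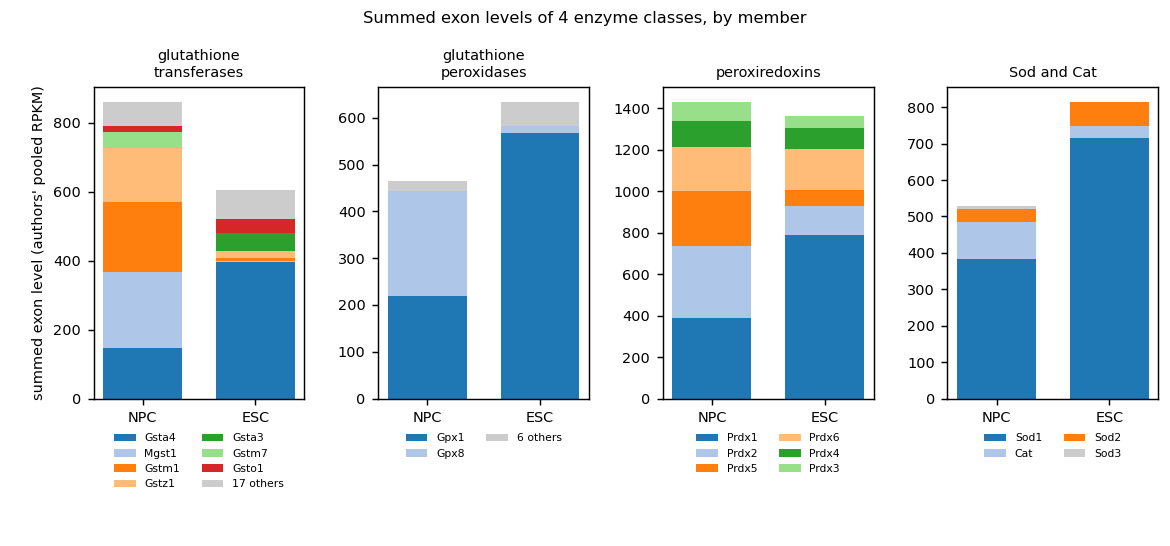
Summed exon level of 4 enzyme classes in NPC (left bar) and ESC (right bar), in the authors' pooled RPKM, stacked by member, with no replicate error. Gsta4 holds 17.0% of the transferase bar in NPC and 65.3% in ESC, Gpx1 holds 47.1% of the peroxidase bar in NPC and 89.7% in ESC, and Prdx1 holds 27.3% of the peroxiredoxin bar in NPC and 58.1% in ESC.

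On introns, 4 of the 6 peroxiredoxins were called lower in NPC, where 34% of all 8811 genes tested were. Of these 4, 3 had no exon call, and 20.8% of all genes with no exon call were lower on introns. Prdx1 introns were at 3.48 and 6.52 RPKM in NPC replicates 1 and 2, against 18.6 and 21.5 in ESC. This was a log2 fold change of -1.85 (SE 0.594, limma adjusted p 0.0234, lost without ESC replicate 1 or without ESC replicate 2, at up to 0.549). Prdx4 introns were at 1.90 and 1.85 RPKM in NPC, against 7.43 and 8.54 in ESC, without overlap (log2 fold change -1.64, SE 0.323, adjusted p 0.00172). Prdx3 was at 1.51 and 2.05 intron RPKM in NPC against 4.82 and 4.75 in ESC (adjusted p 0.00592), and Prdx6 at 3.17 and 5.33 against 12.7 and 12.9 (adjusted p 0.0346). All 4 passed limma with all replicates, and none did so without ESC replicate 1 or without ESC replicate 2, the highest adjusted p being 0.185 for Prdx3, 0.106 for Prdx4 and 0.565 for Prdx6. Prdx2 and Prdx5 showed the wide gap between the NPC replicates, at 10.6 and 30.7 intron RPKM and at 7.67 and 20.1 in NPC, against 15.4 and 11.6 and against 6.81 and 5.25 in ESC. The Prdx2 groups overlapped and the Prdx5 groups did not, and neither passed limma (adjusted p 0.668 and 0.207). Without NPC replicate 1 their log2 fold changes were 1.14 and 1.59, against 0.42 and 0.95 with all replicates. With columns scaled to the same median, Prdx5 passed (limma adjusted p 0.0143) and Prdx2 did not (0.0986). Neither passed with the receptor gene background subtracted (0.771 for Prdx2 and 0.388 for Prdx5) or with voom (0.539 and 0.141).

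Of the thioredoxins, their reductases and Txnip, 1 of 5 genes tested on exons was called, Txn2, in the authors' deposited table. Txn1, the cytosolic thioredoxin that recharges peroxiredoxins, was at 262 exon RPKM in NPC and 256 in ESC in the authors' deposited table (log2 fold change -0.14, adjusted p 0.628). Its pooled RPKM and its deposited fold change differ in direction, and these scales are offset as given above. Txn1 introns were at 3.15 and 6.87 RPKM in NPC against 12.2 and 13.2 in ESC, without overlap (log2 fold change -1.26, limma adjusted p 0.0724). They passed with scaled columns (limma adjusted p 0.0363) and with voom (0.0310). They did not pass with the receptor gene background subtracted (0.137) or with the replicate number as a block (0.163). The Txn1 intron log2 fold change was -0.80 without NPC replicate 1. Txn2, its mitochondrial form, fell to 14.4 exon RPKM in NPC, against 20.4 in ESC, in the authors' deposited table (log2 fold change -0.63, adjusted p 0.0351), and its introns fell as well, to 0.685 and 0.574 RPKM in NPC against 1.95 and 2.54 in ESC (limma adjusted p 0.00125). Txnip, an inhibitor that binds thioredoxin and responds to glucose, was at 70.0 exon RPKM in NPC and 98.9 in ESC, just outside the threshold in the authors' deposited table (adjusted p 0.0516). Txnip had the highest mean intron level of the 46 genes tested, at 10.52 and 26.8 RPKM in NPC against 60.5 and 53.4 in ESC. The groups did not overlap, and limma gave an adjusted p of 0.118. The call depended on the setting. Txnip passed without the mean-variance trend (limma adjusted p 0.0412) and with voom (0.0197). It did not pass with columns scaled to the same median (0.0549), with the receptor gene background subtracted (0.144) or with the replicate number as a block (0.301). Its intron log2 fold change was -1.69 with all replicates and -1.06 without NPC replicate 1. The reductases Txnrd2 of mitochondria and Txnrd3 were at 2.41 and 17.2 exon RPKM in NPC against 0.894 and 9.70 in ESC, and neither was called in the authors' deposited table (adjusted p 0.143 and 0.0589). Txnrd1, the cytosolic reductase, was measured here on introns only, at 1.67 and 2.62 RPKM in NPC against 6.43 and 7.60 in ESC (log2 fold change -1.36, SE 0.331, limma adjusted p 0.00583, lost without ESC replicate 1 or without ESC replicate 2, at up to 0.232).

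Of the 12 Txndc and Txnl genes, 9 were tested on exons, with 4 higher and 4 lower in the authors' deposited table. Txndc16, a protein of the endoplasmic reticulum, was at 59.1 exon RPKM in NPC and 5.02 in ESC (log2 fold change 3.39, adjusted p 4.61e-46) and Txndc15, a membrane protein needed for cilia, at 146 in NPC and 37.9 in ESC (log2 fold change 1.79, adjusted p 9.92e-12) in the authors' deposited table. Txndc5, a protein disulfide isomerase of the endoplasmic reticulum, was at 60.0 exon RPKM in NPC and 36.8 in ESC in the authors' deposited table (adjusted p 0.0409). Introns moved with exons for Txndc16, at 1.83 and 3.06 RPKM in NPC against 0.622 and 0.515 in ESC (limma adjusted p 0.00124). For Txndc5 and Txndc15 the intron replicates overlapped, at 1.34 and 2.24 RPKM and at 1.49 and 2.72 RPKM in NPC against 1.81 and 1.73 and against 2.09 and 1.94 in ESC. Txndc12, a small resident of the same compartment, was measured on introns only and rose, at 1.92 and 3.05 RPKM in NPC against 1.00 and 0.728 in ESC (limma adjusted p 0.00498, lost without ESC replicate 1 or without ESC replicate 2, at up to 0.204). Txndc11, a partner of dual oxidases, was at 5.43 exon RPKM in NPC and 4.40 in ESC and was not called in the authors' deposited table, while its introns were at 1.80 and 2.27 RPKM in NPC against 1.09 and 1.08 in ESC (limma adjusted p 0.0318, lost without ESC replicate 1 or without ESC replicate 2, at up to 0.403).

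Of the Txnl genes and the remaining Txndc genes, 4 fell and 1 rose in the authors' deposited table. Txnl4a, a component of the spliceosome despite its name, was at 51.4 exon RPKM in NPC and 129 in ESC (log2 fold change -1.44, adjusted p 2e-08) and Txndc9, a thioredoxin-like partner of the chaperonin, at 26.1 in NPC and 53.0 in ESC (log2 fold change -1.17, adjusted p 3.4e-06) in the authors' deposited table. Txnl1, which associates with the proteasome, and Txndc17, a cytosolic disulfide reductase, were at 139 and 41.3 exon RPKM in NPC against 199.97 and 58.7 in ESC, with adjusted p of 0.00937 and 0.0334 in the authors' deposited table. Txnl4b, a relative of Txnl4a, went the other way, with 22.2 exon RPKM in NPC and 10.51 in ESC in the authors' deposited table (log2 fold change 0.96, adjusted p 0.0195). Other transcripts hold 12.6% of the Txnl4a 50-base stretches. Txnl4a introns were at 2.77 and 4.88 RPKM in NPC against 22.3 and 24.4 in ESC, without overlap (limma adjusted p 0.00599, lost without ESC replicate 1 or without ESC replicate 2, at up to 0.343). Txndc2 and Txndc8, known from sperm, were below a mean of 1 exon RPKM.

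Of the glutaredoxins, which use glutathione to reduce mixed disulfides, the iron-sulfur protein Glrx5 of mitochondria rose on exons. It was at 168 exon RPKM in NPC and 77.9 in ESC in the authors' deposited table (log2 fold change 0.96, adjusted p 0.000489). Its introns went the other way, at 1.23 and 1.72 RPKM in NPC against 2.69 and 2.64 in ESC (log2 fold change -0.57, SE 0.204, limma adjusted p 0.0372). That intron call was lost in 8 of the 13 alternatives run, with columns scaled to the same median among them (adjusted p 0.177). Glrx, Glrx2 and Glrx3 were at 22.3, 14.0 and 19.4 exon RPKM in NPC against 17.1, 11.9 and 27.5 in ESC, and none was called in the authors' deposited table. A share of 15.1% of the Glrx3 50-base stretches occurs in other transcripts, mostly of a processed pseudogene. Glrx2 introns were at 2.04 and 2.25 RPKM in NPC against 10.7 and 11.6 in ESC (log2 fold change -1.95, SE 0.384, limma adjusted p 0.00172, lost without ESC replicate 1 or without ESC replicate 2, at up to 0.124).

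Of the 4 genes for making and recycling glutathione, 3 were lower in NPC and 1 was not called in the authors' deposited table, with a summed exon level of 106 RPKM in NPC and 203 in ESC in the authors' pooled RPKM. Gclm, the modifier subunit of glutamate-cysteine ligase, was at 12.0 exon RPKM in NPC and 36.4 in ESC (log2 fold change -1.75, adjusted p 7.83e-08) and Gclc, the catalytic subunit, at 40.5 in NPC and 55.3 in ESC (log2 fold change -0.60, adjusted p 0.0424) in the authors' deposited table. Gsr, glutathione reductase, fell to 40.0 exon RPKM in NPC, against 97.0 in ESC, in the authors' deposited table (log2 fold change -1.44, adjusted p 2.55e-09). Gss, the synthetase, was at 13.7 exon RPKM in NPC and 14.7 in ESC and was not called in the authors' deposited table (adjusted p 0.659).

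On introns, Gsr and Gclm fell as well. Gsr introns were at 0.895 and 0.945 RPKM in NPC replicates 1 and 2, against 3.29 and 3.52 in ESC, with tight replicates and no overlap (log2 fold change -1.20, SE 0.192, limma adjusted p 0.000478). Gclm introns were at 1.13 and 1.40 RPKM in NPC against 3.79 and 4.40 in ESC (log2 fold change -1.17, SE 0.221, limma adjusted p 0.00135, but 0.0525 without ESC replicate 2). Gclc introns were at 2.03 and 3.42 RPKM in NPC against 4.68 and 5.25 in ESC, without overlap, and did not pass limma (adjusted p 0.0883). Nor did they pass with scaled columns (0.143), background subtracted (0.226), voom (0.0895) or the replicate number as a block (0.143). The Gclc intron log2 fold change was -0.70 with all replicates and -0.43 without NPC replicate 1.

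Among the enzymes that act on superoxide and hydrogen peroxide directly, the intracellular dismutases fell while extracellular dismutase and catalase rose. Sod1, of the cytosol, was at 384 exon RPKM in NPC and 715 in ESC (log2 fold change -0.97, adjusted p 0.000775) and Sod2, of mitochondria, at 35.5 in NPC and 64.9 in ESC (log2 fold change -0.999, adjusted p 9.59e-05) in the authors' deposited table. Sod3, which is secreted, was at 9.88 exon RPKM in NPC and 0.546 in ESC (log2 fold change 4.03, adjusted p 3.85e-14) and Cat, of peroxisomes, at 101 in NPC and 33.3 in ESC (log2 fold change 1.47, adjusted p 1.42e-07) in the authors' deposited table.

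Catalase introns were at 2.04 and 3.06 RPKM in NPC against 1.06 and 0.997 in ESC, without overlap (log2 fold change 0.79, SE 0.203, limma adjusted p 0.00784, lost without ESC replicate 1 or without ESC replicate 2, at up to 0.231). Sod2 introns were at 1.97 and 4.30 RPKM in NPC against 13.5 and 12.6 in ESC (log2 fold change -1.82, SE 0.477, adjusted p 0.00876, lost without ESC replicate 1 or without ESC replicate 2, at up to 0.302). A share of 21.0% of the Sod2 50-base stretches occurs in other transcripts. Sod1 introns were at 8.26 and 15.7 RPKM in NPC against 36.2 and 33.5 in ESC, without overlap, and did not pass limma (adjusted p 0.119). They did pass with scaled columns (limma adjusted p 0.0358), without the mean-variance trend (0.0253) and with voom (0.0165). They did not pass with the receptor gene background subtracted (0.168) or with the replicate number as a block (0.306). The Sod1 intron log2 fold change was -1.52 with all replicates and -1.10 without NPC replicate 1. Sod3 introns held 27 and 4 reads in NPC against 1 and 0 in ESC, and were not tested.

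**Figure D4:**
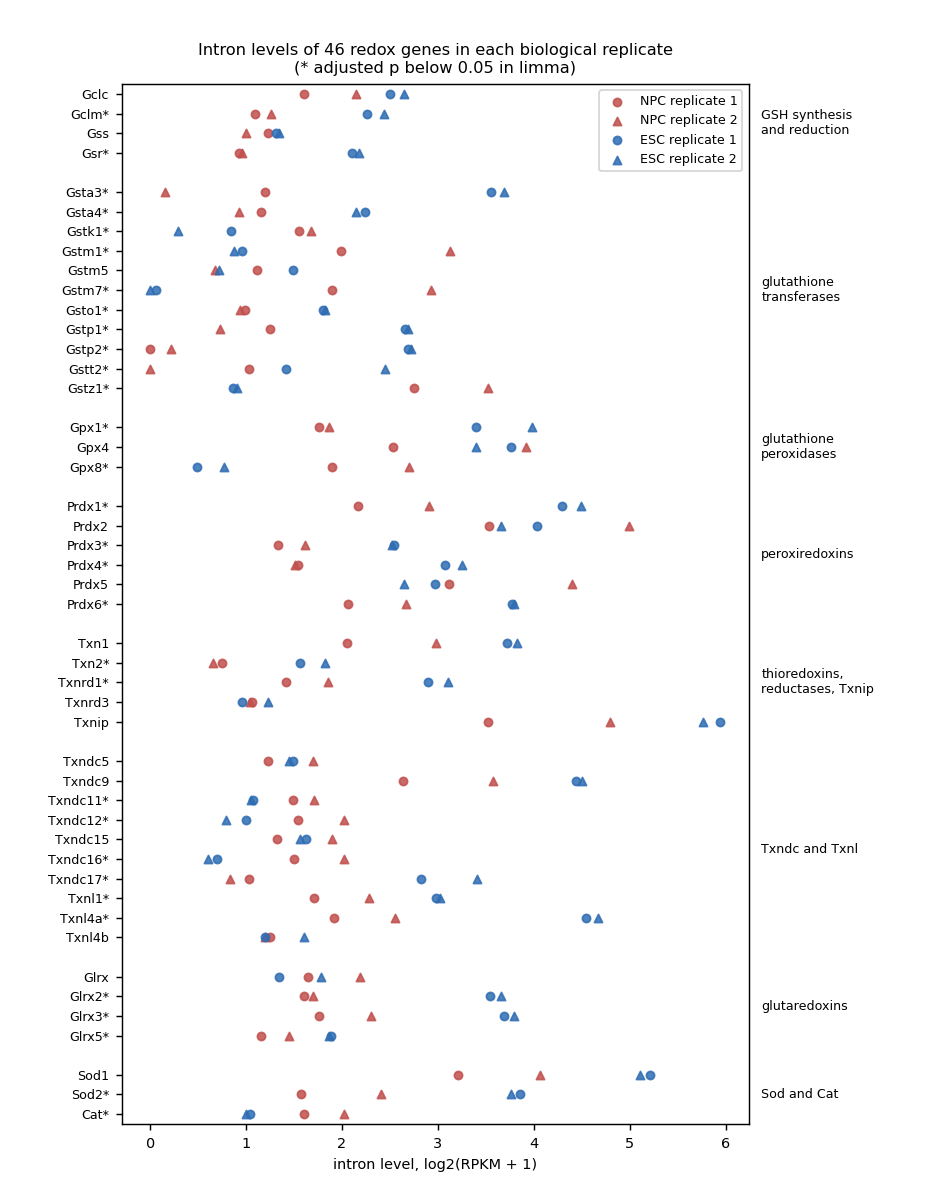
Intron level of the 46 tested genes in each biological replicate, as log2(RPKM + 1), with NPC in red, ESC in blue, circles for replicate 1 and triangles for replicate 2. An asterisk marks an adjusted p below 0.05 in limma. In 38 genes the NPC and ESC points do not overlap, and in 28 of these the NPC points lie to the left.

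Over all intron values, 46 of the 68 genes reached a mean of 1 RPKM, and limma called 31, or 67.4%, against 47.3% of 8811 genes tested. There were 9 higher (13.2% of all genes) and 22 lower (34% of all genes). With each column's receptor gene background subtracted, the split was 4 higher (5.77% of all genes at that setting) and 19 lower (25.2% of all genes), and the calls of Cat, Glrx5, Gstk1, Prdx6, Txndc11, Txndc12, Txndc16 and Txnl1 were lost. The NPC and ESC replicates did not overlap in 38 genes (77.4% of all genes), 10 with NPC above (21.9% of all) and 28 with NPC below (55.5% of all). The median intron log2 fold change was -0.998 over the 46 genes and -0.43 over all genes tested. With columns scaled to the same median these were -0.61 and -0.05, and 11 were called higher (25.6% of all genes at that scaling) and 23 lower (26.4% of all genes). Leaving out ESC replicate 1 left 4 higher and 9 lower, where 6.2% and 12.9% of all genes were called, and leaving out ESC replicate 2 left 3 and 8, where 5.54% and 12.6% of all genes were called. The calls of Gpx8, Gsr, Gsta3, Gsta4, Gstm7, Gstp1, Gstp2, Txn2, Txndc16 and Txndc17 held whichever replicate was left out. Of the 22 genes below the mean of 1, NPC replicate 1 was the highest of the 4 columns in 18, and it exceeded NPC replicate 2 in 20, the exceptions being Mgst1 and Txndc2.

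Of the 44 genes tested on both exons and introns, 14 were lower on both, or 31.8%, against 26.1% of all 8380 genes tested in both. A further 7 were higher on both, or 15.9%, against 12.3% of all genes. None was lower on exons and higher on introns, and Glrx5 was higher on exons and lower on introns. Among the 13 with no exon call, 6 were lower on introns (Glrx2, Glrx3, Gstp1, Prdx3, Prdx4 and Prdx6), against 20.8% of the 2904 genes with no exon call. Of these 6, Gstp1 alone kept its call without ESC replicate 1 or without ESC replicate 2, where 3.55% and 3.82% of the 2904 genes were lower. Glrx3, at 2.40 and 3.94 intron RPKM in NPC against 11.9 and 12.9 in ESC, reached an adjusted p of up to 0.366 there. The median intron log2 fold change less the exon log2 fold change was -0.69 over the 44 genes and -0.29 over all 8380 genes tested in both, where the exon value is that of the authors' deposited table. The pair of values has different scales, with the intron value on log2(RPKM + 1), and the difference between exon and intron change was not tested, since no replicate exon values were used here.

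**Figure D5:**
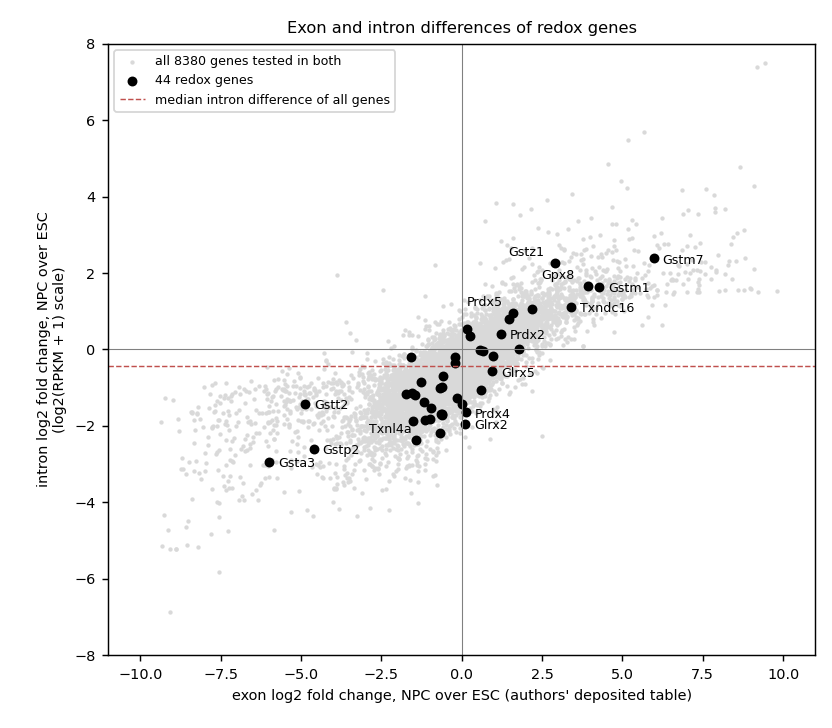
Exon log2 fold change of NPC over ESC from the authors' deposited table against the intron log2 fold change on the log2(RPKM + 1) scale, for 44 glutathione, peroxiredoxin and thioredoxin genes in black and all 8380 genes tested in both in grey. The dashed line is the median intron log2 fold change of all genes tested on introns (-0.43), and Prdx4 and Glrx2 lie near an exon value of 0 and well below that line.

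The wider redox system is described from lists of genes outside the names above, each beside the 32.3% of all genes called higher and 33.9% called lower in the authors' deposited table. Of 8 redox regulators, 2 were higher and 3 lower, with a median log2 fold change of 0.10 (-0.18 with a mean of 10 RPKM or more). Nrf2 itself (Nfe2l2) was at 67.6 exon RPKM in NPC and 44.0 in ESC and was not called in the authors' deposited table (adjusted p 0.0889). Keap1, which marks Nrf2 for degradation, was at 33.4 exon RPKM in NPC and 15.9 in ESC, and Bach2, a repressor at the same motif, at 3.49 in NPC and 0.448 in ESC, both higher in the authors' deposited table. The small Maf partners Mafg, Maff and Mafk were at 27.9, 35.9 and 11.5 exon RPKM in NPC against 76.4, 58.7 and 17.5 in ESC, all lower in the authors' deposited table. Introns did not follow for all of them. Maff introns were at 9.30 and 24.5 RPKM in NPC replicates 1 and 2, against 2.47 and 2.58 in ESC, and rose by limma (log2 fold change 2.20, SE 0.524, adjusted p 0.00525). Mafk introns were at 2.60 and 5.6035 RPKM in NPC against 2.13 and 1.98 in ESC (adjusted p 0.0876), and Mafg introns at 3.59 and 7.90 in NPC against 13.9 in both ESC replicates (adjusted p 0.0962).

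Known Nrf2 target enzymes outside the names above went both ways. Of 15 tested, 6 were higher and 5 lower in the authors' deposited table, with a median log2 fold change of 0.20. Hmox1, heme oxygenase, fell to 25.7 exon RPKM in NPC, against 161 in ESC, and the reductase Akr1b8 fell to 5.42 in NPC, against 29.1 in ESC, in the authors' deposited table. Aox1, an aldehyde oxidase, was at 27.0 exon RPKM in NPC and 0.748 in ESC, and Slc7a11, the cystine carrier, at 4.39 in NPC and 0.652 in ESC, both higher in the authors' deposited table. Of 24 genes listed under glutathione turnover and supply, 6 were higher and 10 lower, with a median log2 fold change of -0.73. The list was drawn broadly, and not all of its genes act in glutathione turnover or supply. Nat8l, called higher, and Ptges, called lower, are examples. The median was -0.21 and 6 were lower with a mean of 10 RPKM or more, and the median was -0.27 with no filter on the mean. Cbs, an enzyme of cysteine synthesis, was at 56.7 exon RPKM in NPC and 7.79 in ESC and was called higher in the authors' deposited table. Cth, the next enzyme of that synthesis, went the other way, at 8.66 in NPC and 65.9 in ESC, and was called lower. Slc1a1, a cysteine and glutamate carrier, was at 1.00 exon RPKM in NPC and 17.98 in ESC, also called lower in the authors' deposited table.

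Of 19 genes of NADPH supply, 6 were higher and 5 lower in the authors' deposited table, with a median log2 fold change of 0.18. Nnt, the mitochondrial transhydrogenase, was at 26.3 exon RPKM in NPC and 5.80 in ESC, and Aldh1l2, a mitochondrial folate enzyme, at 24.0 in NPC and 1.87 in ESC, both higher in the authors' deposited table. The folate enzymes Mthfd2 and Mthfd1l fell to 23.2 and 36.8 exon RPKM in NPC, against 56.8 and 90.0 in ESC, in the authors' deposited table. Of 20 selenoproteins and genes of their synthesis, 8 were higher and 4 lower, with a median log2 fold change of 0.38. Sepp1, the selenium carrier protein, was at 508 exon RPKM in NPC and 3.89 in ESC in the authors' deposited table (log2 fold change 6.86, adjusted p 1.71e-146). The enzymes of selenocysteine synthesis Sephs2 and Sepsecs and the elongation factor Eefsec fell, to 40.2, 10.4 and 5.74 exon RPKM in NPC against 243, 19.8 and 13.5 in ESC, in the authors' deposited table.

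Of 23 genes of thiol repair and disulfide exchange, 12 were higher and 3 lower in the authors' deposited table, with a median log2 fold change of 0.75. Sesn3 and Sesn2, both sestrins, went opposite ways, with 219 and 5.34 exon RPKM in NPC against 17.5 and 34.3 in ESC in the authors' deposited table. The disulfide-forming enzyme Qsox1 was at 23.5 exon RPKM in NPC and 3.31 in ESC, higher in the authors' deposited table. Of 9 genes listed under lipid peroxide defence, 3 were higher and 3 lower in the authors' deposited table. The median log2 fold change was 0.17 (-0.38 with a mean of 10 RPKM or more). Acsl4, counted among those higher at 41.7 exon RPKM in NPC and 15.9 in ESC, is not itself a defence gene. Pon2 was at 40.9 exon RPKM in NPC and 4.72 in ESC and Ptgr1 at 2.05 in NPC and 26.4 in ESC in the authors' deposited table. Of 15 producers of superoxide and hydrogen peroxide, 5 were tested (median log2 fold change -0.29), with 1 higher and 2 lower in the authors' deposited table. The median was -0.0019 with no filter on the mean, and no call was left with a mean of 10 RPKM or more.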

How the data were processed

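Libraries of total RNA without ribosomal RNA (ScriptSeq v2, 50-base single reads) came from 2 biological replicates of each cell type, per the labels' protocols. The authors deposited exon RPKM pooled per cell type, with their own comparison as a log2 fold change (NPC over ESC) plus an adjusted p-value, and the submitters' processing notes name DESeq2 1.10.0 and mm9. Of the aligner, counter, annotation and use of strand, the sources used here say nothing. The deposited intron values have 1 column per biological replicate with technical libraries combined, and RPKM was inferred as their unit, since each of the 18447 genes above 0 gave whole reads (tolerance 0.001 reads). For 1649 genes several intron lengths gave whole reads, and the longest, with the most reads, was kept. Unnamed rows (84 exon, 64 intron) were left out.

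Exon results were read as deposited, for genes whose mean reached 1 RPKM, at an adjusted p of 0.05. Intron values of genes whose mean reached 1 were fitted as log2(RPKM + 1) with limma 3.58.1 (R 4.3.3) with the mean-variance trend, NPC against ESC, and Benjamini-Hochberg adjustment over all 8811 genes. The fit was tried on simulated data with the same spread in all replicates and without the raised background of NPC replicate 1. That simulation cannot show how the background bears on the calls. Fold changes on that scale understate those of low genes. P-values measure the spread between 2 and 2 replicates, and with a replicate left out the lone sample is assumed to vary like the other group. Read counts cover counting error only. Replicate numbers were not used as pairs, because same-numbered replicates did not deviate together (r = 0.019 over genes). Every member found by name is accounted for. From each wider list up to 3 genes in each direction with the largest called change could be named. Nfe2l2 (Nrf2) and Cth were added after their values were seen. The members and lists were chosen with earlier results of these data known. Sequences come from RefSeq (GRCm38.p6), and 50-base stretches were compared over GENCODE vM21 transcripts. Some genes of the wider lists are not reported here by name. Alternatives were other pseudocounts, filters, scalings, thresholds, a replicate block, left-out replicates and limma voom on recovered reads.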

Additional observations from a re-analysis of the deposited data

How the results depend on the processing

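Exon counts of the 55 genes stayed within 1.5 times under every filter and threshold tried, and their median log2 fold change was -0.14 with no filter on the mean, and -0.0813 and -0.0850 as the log2 ratio of the authors' pooled RPKM with pseudocounts of 1 and 0.1. An adjusted p below 0.01 ended the calls of Gclc, Gstm5, Gstt1, Mgst3, Txn2, Txndc17, Txndc5 and Txnl4b. With a mean of at least 10 RPKM, the redox regulators had 1 higher and a median of -0.18, glutathione turnover had 6 lower and a median of -0.21, lipid peroxide defence had a median of -0.38, NADPH supply 0.11, selenoproteins 0.36 and thiol repair 0.67, and the producers of superoxide had 0 higher and 0 lower of the deposited DESeq2 calls. With no filter, the medians were 0.20 for Nrf2 targets, -0.27 for glutathione turnover, 0.67 for thiol repair and -0.0019 for the producers. On introns, no filter on the mean left 1 higher (1.21% of all genes) and 9 lower (5.04% of all genes) with a median of -0.0743 (18655 genes tested). Subtracting the receptor gene background left 4 higher (5.77% of all genes). Leaving out 1 replicate gave 3 to 11 higher and 8 to 28 lower. The intron median was -1.36 with a pseudocount of 0.1, -0.61 with scaled columns, -1.28 with background subtracted and -1.42 with voom. With the replicate number as a block in the fit, 9 genes were higher (13% of all genes) and 18 lower (29.9% of all genes). Glrx5, Prdx1, Prdx6 and Txnl1 then lost their calls, but the numbers mark no shared culture in the labels. Of 31 intron calls, 5 held under all 13 alternatives (Gsr, Gsta3, Gstp1, Gstp2 and Txndc17). The causes of these shifts were not tested. Exon values carry no replicate spread, and intron values of Gpx1, Gstm5, Gstp1, Gstp2, Gstt2, Txn2 and Txndc17 rest on fewer than 20 reads in each NPC replicate.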
